A study of Mus musculus with 10 samples.

Results

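Basement membrane genes encode the proteins of the thin sheet of extracellular matrix on which epithelial cells rest. The set described here was a named list of 10 genes out of 30460 in the expression tables: the laminin chains Lama1, Lama5, Lamb1 and Lamc1, the collagen IV chains Col4a1 and Col4a2, the nidogens Nid1 and Nid2, the matrix glycoprotein Sparc and the perlecan gene Hspg2. The genes are grouped by the function of their proteins, and all 10 were among the 15731 genes tested. The genes were followed in 10 RNA sequencing libraries of C57BL/6 mouse embryonic stem cells. Of these, 3 were labelled Mga knockout, 2 L3mbtl2 knockout, 2 Pcgf6 knockout and 3 wild type. No treatment, time point or allele is given in the labels, nor is it stated there whether the replicates were separate clones or cultures, so p-values measure the spread between these libraries, which may be technical. MGA, L3MBTL2 and PCGF6 are subunits of the same Polycomb complex, PRC1.6, which represses transcription, and the comparisons ask how the genes stand in each knockout relative to wild type.

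A basement membrane is built around a laminin network. Laminins are trimers of an alpha, a beta and a gamma chain that polymerise at the cell surface, where integrins and dystroglycan hold them. Collagen IV forms a covalently linked network of its own, nidogens bridge both networks, and perlecan adds heparan sulfate chains that bind growth factors. In the early mouse embryo the primitive endoderm and its parietal derivative secrete large amounts of these proteins, and embryonic stem cells in culture also make them.

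The depth of the libraries, as whole reads recovered from the values, lay between 19.4 and 26.7 (in 1e6 reads), and the member with the fewest reads in any library still had 422. All 10 markers of embryonic stem cells (among them Pou5f1, Sox2 and Nanog) were above 0 in every library, summing to 3287 to 3841 FPKM in libraries labelled Mga knockout, 3469 and 3532 FPKM in L3mbtl2 knockout, 3911 and 4029 FPKM in Pcgf6 knockout and 2584 to 2826 FPKM in wild type. FPKM is the number of fragments per kilobase of gene, scaled to library depth. The targeted genes L3mbtl2 and Pcgf6 fell in their own knockouts, by -2.45 and -1.56 on the log2 scale (limma, adjusted p = 3.24e-05 and 2.8e-05). Mga reached 43.5%, 106% and 60.5% of its wild type mean in replicates 1, 2 and 3 labelled Mga knockout. In replicate 2 its RNA was thus not reduced, and the Mga difference did not pass (adjusted p = 0.0987). The allele is not given, so the RNA level alone cannot show whether that label is right. Of all tested genes 45.0% lay above and 39.2% below the wild type range in replicate 2, against 50.3% and 37.8% in replicate 1. The libraries labelled Mga knockout also varied more than the others, with a median standard deviation over all tested genes of 0.34 (log2 scale) against 0.06 in L3mbtl2 knockout, 0.07 in Pcgf6 knockout and 0.09 in wild type. Since 1 fit gives all groups a common spread, this variation enters every standard error below. The common spread is in turn smaller than that of the Mga libraries, so p-values of the Mga comparison come out too small. With only Mga and wild type libraries in the fit, the SE of Nid2 was 0.27 instead of 0.23. In that fit 3994 of all tested genes passed an adjusted p of 0.05, instead of 6210.

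Promoter sequences (RefSeq, GRCm38.p6, from 250 bases before to 50 bases after the gene's start) were held for 7 of the 10 genes, all but Lama1, Lamc1 and Nid2. The Lama5 window is shown because Lama5 is the member that rose in one knockout and fell in another. It reads from the minus strand at chr2:180225810-180226109, and its capitals mark the match to the E2F motif TTCCCGC, which begins 211 bases before the start.
Lama5: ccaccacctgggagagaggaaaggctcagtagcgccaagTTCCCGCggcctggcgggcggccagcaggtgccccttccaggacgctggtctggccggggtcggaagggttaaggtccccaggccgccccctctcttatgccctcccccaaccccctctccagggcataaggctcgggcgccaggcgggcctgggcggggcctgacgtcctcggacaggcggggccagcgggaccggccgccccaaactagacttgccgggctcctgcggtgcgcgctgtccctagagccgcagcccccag
The Col4a1 window is shown because Col4a1 and Col4a2 start next to each other on opposite strands. It reads from the minus strand at chr8:11312777-11313076, and its capitals mark the 22 bases between the starts of Col4a1 (position 11312826) and Col4a2 (position 11312805), which both transcripts contain.
Col4a1: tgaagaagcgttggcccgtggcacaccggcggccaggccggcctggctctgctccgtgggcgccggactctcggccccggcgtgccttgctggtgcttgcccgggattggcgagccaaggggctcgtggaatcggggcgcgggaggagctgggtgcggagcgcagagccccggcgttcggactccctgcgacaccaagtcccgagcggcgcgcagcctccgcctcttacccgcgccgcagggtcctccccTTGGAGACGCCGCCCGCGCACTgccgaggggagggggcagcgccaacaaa

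Motifs were searched on both strands of the 7 windows. The E2F motif TTCCCGC was in 1 of them, the Lama5 window, and in 4.6% of all 32851 promoter windows. The GC box GGGCGG was in 6 of the 7, all but Sparc, and in 35.66% of all windows. The windows of Col4a1 and Col4a2 overlap by 78 bases, and the only GC box of the Col4a1 window lies in this overlap and is counted for both genes. The E-box CACGTG (7.15% of all windows), the T-box motif AGGTGTG (5.84%) and the GATA site AGATAA (11.18%) were in none of the 7. The 7 windows were GC-rich, from 55.3% to 74.0% G and C, against a median of 52.7% over all windows. A match is only a run of letters and not evidence of binding.

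In wild type the genes differed widely in level. Sparc was the most abundant per length, at 198 ± 1.58 FPKM (SD, n = 3), followed by Lamc1 at 58.9 ± 1.87 FPKM. Perlecan and Nid1 came next, at 43.8 ± 0.926 and 42.2 ± 1.53 FPKM, and were the only neighbours in this order whose wild type libraries overlapped. Below them lay Nid2 (37.2 FPKM), Lama5 (31.8), Col4a1 (26.1), Lamb1 (21.1), Col4a2 (17.5) and Lama1 (11.7). The wild type libraries were close, with a coefficient of variation between 0.344% (Lamb1) and 3.64% (Nid1). Lama5 was therefore the more abundant alpha chain in wild type, and the gamma chain stood above the beta chain.

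**Figure D1:**
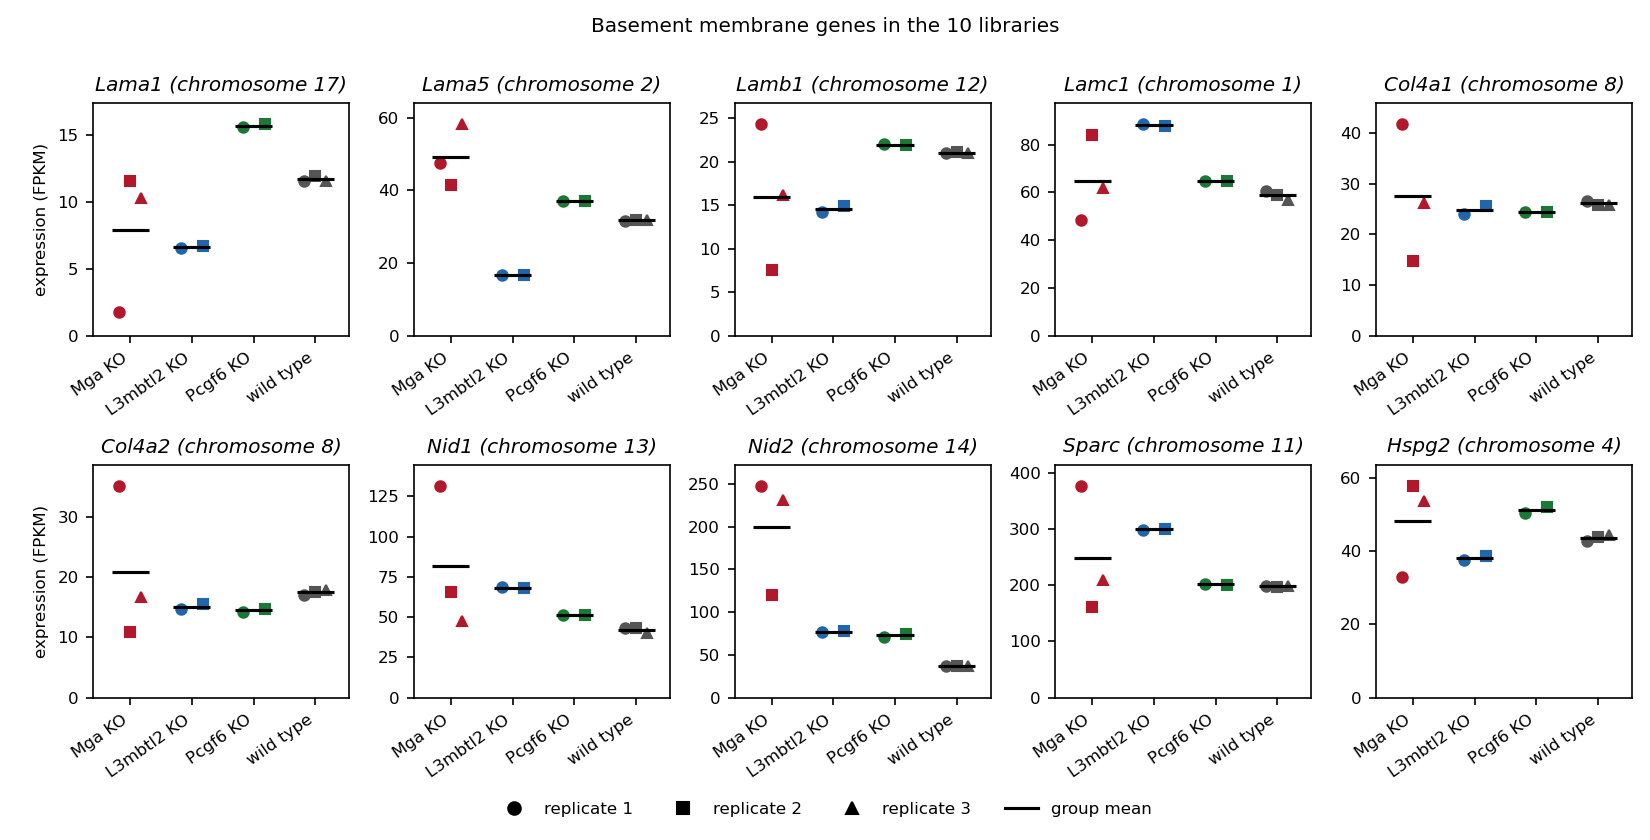
Expression of the 10 basement membrane genes in FPKM (linear axes from 0), with 1 point per library and the mean of each group as a line; groups run from Mga, L3mbtl2 and Pcgf6 knockout (KO) to wild type. The libraries labelled Mga KO are spread widely in most panels, those of Nid2 and Lama5 all lie above wild type, and those of the other groups lie almost on top of each other.

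The clearest change was in Nid2. Every knockout library lay above every wild type library, and it rose in the libraries labelled Mga knockout and in L3mbtl2 knockout, while the Pcgf6 difference just missed the threshold. Lama5 rose in the libraries labelled Mga knockout and fell in L3mbtl2 knockout, and Lamc1 rose in L3mbtl2 knockout. The remaining 7 genes passed the threshold in no comparison with wild type. Thresholds are a Benjamini-Hochberg adjusted p of 0.05 from limma on log2(FPKM + 0.1), adjusted over all 15731 tested genes, and fold changes are log2 differences on that scale, knockout minus wild type, ± SE.

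Of the 10 genes, 2 passed in the libraries labelled Mga knockout (both higher), where 39.5% of all tested genes passed (22.8% higher, 16.7% lower). In L3mbtl2 knockout 3 passed (2 higher, 1 lower), against 40% of all tested genes (23.4% higher, 16.7% lower). In Pcgf6 knockout limma called 0 of the 10, against 10.1% of all tested genes (5.45% higher, 4.62% lower). There 1 gene (Nid2) had an unadjusted p under 0.05, and limma-voom on recovered reads also called 0. The median log2 fold change of the 10 genes was 0.10, -0.13 and 0.18 in the Mga, L3mbtl2 and Pcgf6 comparisons, beside 0.10, 0.13 and 0.04 over all tested genes. In each comparison of this fit the share of the 10 genes that passed was below that of all tested genes, and the directions were mixed. That order depended on the fit. Without replicate 1 labelled Mga knockout the share of the 10 was above that of all tested genes in each comparison. With only the compared groups in the fit it was above in the L3mbtl2 and Pcgf6 comparisons and below in the Mga comparison. The 3 comparisons share the wild type libraries and are not independent of each other.

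The libraries of the L3mbtl2 knockout lay outside the wild type range at all 10 genes (4 above, 6 below), but 79.5% of all tested genes were separated in the same way (46.7% above, 32.8% below). The same held for the Pcgf6 knockout, with 8 genes above and 2 below, against 65.5% of all tested genes (36.2% above, 29.2% below). For the libraries labelled Mga knockout 4 of the 10 were separated, 3 above and 1 below, against 48.7% (28.3% above, 20.5% below). Where only the groups compared entered the fit, the variable Mga libraries no longer set the spread of the L3mbtl2 and Pcgf6 comparisons. Then 9 of the 10 genes passed in L3mbtl2 knockout (4 higher, 5 lower), against 67.3% of all tested genes. In Pcgf6 knockout 8 passed (6 higher, 2 lower), against 43.7%, and 2 passed in the Mga comparison, against 25.4%. The L3mbtl2 and Pcgf6 fits of this kind rest on 2 libraries against 3.

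**Figure D2:**
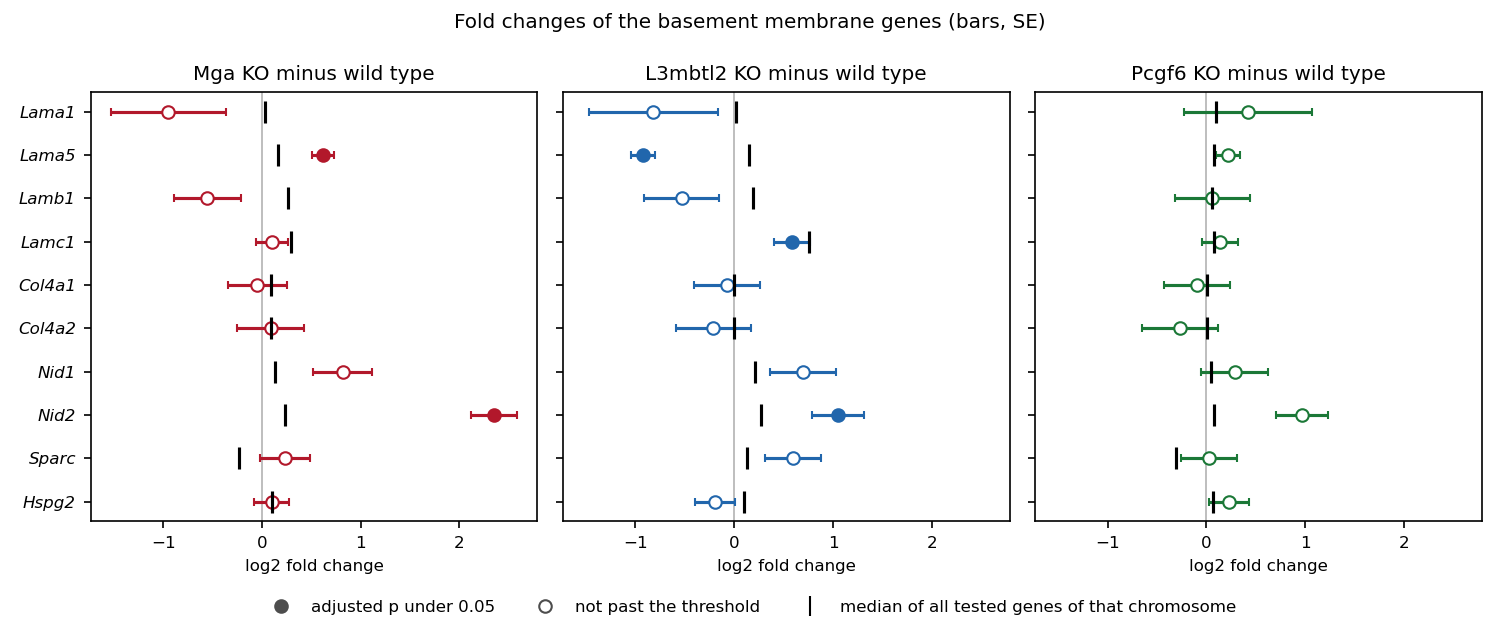
Log2 fold change of each gene in each knockout minus wild type, with its limma SE as a horizontal bar; filled points passed an adjusted p of 0.05, and a black tick gives the median of all tested genes on the same chromosome. Nid2 lies to the right in all 3 panels, at 2.35, 1.05 and 0.97, Lama5 is at 0.61 in Mga KO and -0.92 in L3mbtl2 KO, and Lamc1 in L3mbtl2 KO lies just left of its chromosome's median.

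Among the laminin alpha chains, Lama5 (GRCm38 chromosome 2, 180176373 to 180225859, minus strand) encodes the alpha chain of the laminins found in most adult and many embryonic basement membranes. It measured 47.6, 41.5 and 58.3 FPKM in libraries labelled Mga knockout, 16.6 and 16.8 FPKM in L3mbtl2 knockout, 37.0 and 37.0 FPKM in Pcgf6 knockout, and 31.6, 31.9 and 31.7 FPKM in wild type. No library of any group overlapped another group. Lama5 was 0.61 ± 0.11 higher in the libraries labelled Mga knockout than in wild type (adjusted p = 0.00327). It was 0.73 higher without replicate 2, the one with Mga RNA at its wild type level (adjusted p = 0.000259). In L3mbtl2 knockout it was lower than wild type by -0.92 ± 0.12 (adjusted p = 0.000838), or 52.5% of the wild type mean. In Pcgf6 knockout the difference of 0.22 ± 0.12 did not pass (adjusted p = 0.303). These calls held under all 22 alternatives tried, with an adjusted p of at most 0.0215 for Mga and at most 0.0126 for L3mbtl2.

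The knockouts also differed from each other in Lama5. The libraries labelled Mga knockout were 1.54 ± 0.12 above those of the L3mbtl2 knockout (adjusted p = 0.000121), and the L3mbtl2 knockout was lower than the Pcgf6 knockout by -1.15 ± 0.14 (adjusted p = 0.000876). The order of levels was therefore Mga, Pcgf6, wild type, L3mbtl2, with no difference past the threshold between Mga and Pcgf6 knockout (0.39 ± 0.12, adjusted p = 0.0509) or between Pcgf6 knockout and wild type. The Mga and Pcgf6 difference passed in 6 of 22 alternatives, with adjusted p between 8.39e-05 and 0.244.

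Lama1, on chromosome 17, encodes the alpha chain of the laminin first made in the mouse embryo. It measured 1.79, 11.5 and 10.3 FPKM in libraries labelled Mga knockout, 6.51 and 6.66 FPKM in L3mbtl2 knockout, 15.6 and 15.8 FPKM in Pcgf6 knockout, and 11.6, 11.9 and 11.6 FPKM in wild type. Replicate 1 labelled Mga knockout stood far below every other library, and the 3 of that group were below wild type by margins that differed greatly. The fold change was -0.95 ± 0.58 in the libraries labelled Mga knockout (adjusted p = 0.225) and -0.10 without replicate 1. In L3mbtl2 knockout it was -0.82 ± 0.65 (adjusted p = 0.342) and in Pcgf6 knockout 0.42 ± 0.65 (adjusted p = 0.745). Without the low Mga library the common spread was smaller and both passed, with the same fold changes (adjusted p = 8.98e-05 in L3mbtl2 knockout and 0.00558 in Pcgf6 knockout). Whether Lama1 passed in L3mbtl2 and Pcgf6 knockout thus depended on that 1 library.

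The ratio of Lama5 to Lama1 shows the alpha chains together. It was 26.6, 3.60 and 5.67 in the libraries labelled Mga knockout, 2.54 and 2.52 in L3mbtl2 knockout, 2.38 and 2.34 in Pcgf6 knockout, and 2.67 to 2.74 in wild type. It was above wild type in every library labelled Mga knockout and slightly below in the other knockouts. In the L3mbtl2 knockout both alpha chains stood well below wild type, Lama5 at 52.5% and Lama1 at 56.3% of its mean, which left their ratio almost as in wild type.

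Lamb1, on chromosome 12, encodes the beta chain that pairs with both alpha chains. It measured 24.4, 7.49 and 16.1 FPKM in libraries labelled Mga knockout, 14.2 and 14.9 FPKM in L3mbtl2 knockout, 22.0 and 21.9 FPKM in Pcgf6 knockout, and 21.03, 21.15 and 21.02 FPKM in wild type. The libraries labelled Mga knockout fell on both sides of wild type, at 0.21, -1.48 and -0.38 from its mean (log2 scale). The median of the tested genes of chromosome 12 was 0.52, 0.07 and 0.21 in these libraries, so Lamb1 lay below it in each. Fold changes were -0.55 ± 0.34, -0.53 ± 0.38 and 0.06 ± 0.38 in the Mga, L3mbtl2 and Pcgf6 comparisons, none past the threshold (adjusted p = 0.230, 0.295 and 0.949). Without replicate 1 labelled Mga knockout the Mga value was -0.93 (adjusted p = 0.0240), and without replicate 2 it was -0.09 (adjusted p = 0.642).

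Lamc1 (chromosome 1, 153218922 to 153332786, minus strand) encodes the gamma chain of nearly all laminins. It measured 48.3, 84.0 and 61.9 FPKM in libraries labelled Mga knockout, 88.7 and 87.9 FPKM in L3mbtl2 knockout, 64.8 and 64.9 FPKM in Pcgf6 knockout, and 60.6, 59.1 and 56.9 FPKM in wild type. The L3mbtl2 knockout libraries were the highest, and those labelled Mga knockout straddled wild type. Lamc1 rose by 0.58 ± 0.19 in L3mbtl2 knockout (adjusted p = 0.0343). The median of all 904 tested genes of chromosome 1 was 0.75 higher there, and with each library centred on its chromosome medians Lamc1 was at -0.17 (adjusted p = 0.671). Without either L3mbtl2 knockout library the call was lost as well (adjusted p = 0.144 and 0.133), and in all it was lost in 12 of the 22 alternatives besides the centred one. In the Mga and Pcgf6 comparisons Lamc1 differed from wild type by 0.10 ± 0.17 and 0.14 ± 0.19 (adjusted p = 0.656 and 0.697).

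The gamma to beta ratio, Lamc1 over Lamb1, was 1.98, 11.2 and 3.84 in the libraries labelled Mga knockout, 6.26 and 5.90 in L3mbtl2 knockout, 2.94 and 2.96 in Pcgf6 knockout, and 2.71 to 2.88 in wild type. The L3mbtl2 knockout mean of 6.08 ± 0.253 (n = 2) compares with 2.79 ± 0.0875 (n = 3) in wild type. Lamb1 did not pass in that comparison (adjusted p = 0.295), and Lamc1 was at -0.17 when centred on chromosome medians. In the libraries labelled Mga knockout the ratio lay on both sides of wild type.

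**Figure D3:**
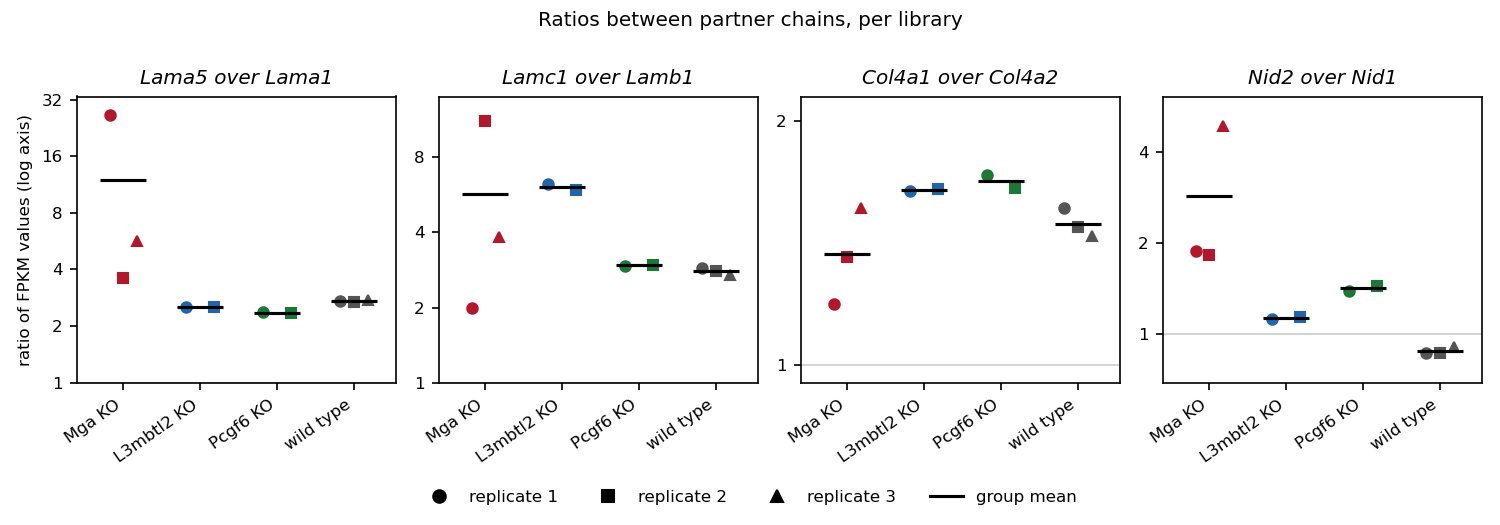
Ratios of FPKM values between partner chains in each library (log axes; a grey line marks a ratio of 1), with group means as lines and knockouts (KO) left of wild type. Lamc1 over Lamb1 is about 6 in L3mbtl2 KO and under 3 in wild type, Col4a1 over Col4a2 stays between 1.19 and 1.72 throughout, and Nid2 over Nid1 is above 1 in every knockout library and below 1 in every wild type library.

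The collagen IV chains Col4a1 (chromosome 8, 11198423 to 11312826, minus strand) and Col4a2 (11312805 to 11449287, plus strand) form the common collagen IV trimer together. Col4a1 measured 41.8, 14.8 and 26.2 FPKM in libraries labelled Mga knockout, 24.1 and 25.6 FPKM in L3mbtl2 knockout, 24.4 and 24.5 FPKM in Pcgf6 knockout, and 26.6, 25.8 and 25.8 FPKM in wild type. Col4a2 measured 35.2, 10.9 and 16.8 FPKM in libraries labelled Mga knockout, 14.7 and 15.5 FPKM in L3mbtl2 knockout, 14.2 and 14.8 FPKM in Pcgf6 knockout, and 17.0, 17.5 and 17.9 FPKM in wild type. Both chains were highest in replicate 1 and lowest in replicate 2 labelled Mga knockout, and in the other 2 knockouts both lay slightly below wild type.

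No comparison of either chain with wild type passed. Col4a1 changed by -0.05 ± 0.30 in the libraries labelled Mga knockout, -0.07 ± 0.34 in L3mbtl2 knockout and -0.10 ± 0.34 in Pcgf6 knockout (adjusted p = 0.916, 0.883 and 0.900). Col4a2 differed by 0.09 ± 0.34, -0.21 ± 0.38 and -0.27 ± 0.38 (adjusted p = 0.856, 0.687 and 0.719). The Mga value of Col4a2 was -0.37 without replicate 1, and that of Col4a1 was 0.34 without replicate 2, so the direction depends on which library is kept. The pair kept close proportions all the same. Col4a1 over Col4a2 was 1.19, 1.36 and 1.56 in the libraries labelled Mga knockout, 1.64 and 1.65 in L3mbtl2 knockout, 1.72 and 1.66 in Pcgf6 knockout, and 1.44 to 1.56 in wild type. While each chain varied about 3-fold among all libraries (2.83-fold for Col4a1, 3.24-fold for Col4a2), their ratio stayed between 1.19 and 1.72. Those ranges of the chains were set by replicates 1 and 2 labelled Mga knockout. In the other groups Col4a1 lay between 24.1 and 26.6 FPKM, Col4a2 between 14.2 and 17.9 FPKM and the ratio between 1.44 and 1.72.

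Nid2 (chromosome 14, 19751265 to 19811787, plus strand) encodes a nidogen, a linker between laminin and collagen IV. It measured 247, 120.0 and 231 FPKM in libraries labelled Mga knockout, 76.9 and 77.4 FPKM in L3mbtl2 knockout, 71.0 and 74.4 FPKM in Pcgf6 knockout, and 37.2, 37.5 and 36.8 FPKM in wild type. Every knockout library stood above every wild type library, and those labelled Mga knockout above all the others. Of that group, replicate 2, with Mga at its wild type level, had the lowest Nid2. The mean was 5.37 times that of wild type in the libraries labelled Mga knockout, 2.08 times in L3mbtl2 knockout and 1.96 times in Pcgf6 knockout.

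Nid2 rose by 2.35 ± 0.23 in the libraries labelled Mga knockout (adjusted p = 0.000193), and by 2.68 without replicate 2 (adjusted p = 4.29e-08). It rose by 1.05 ± 0.26 in L3mbtl2 knockout (adjusted p = 0.0127), a call lost without either of the L3mbtl2 knockout libraries (adjusted p = 0.0720 and 0.0717). In Pcgf6 knockout the difference of 0.97 ± 0.26 just missed the threshold (adjusted p = 0.0504), and over the alternatives its adjusted p lay between 2.92e-06 and 0.261. The difference between Pcgf6 knockout and wild type passed in 9 of the 22 alternatives. Between knockouts, the libraries labelled Mga knockout exceeded L3mbtl2 knockout by 1.30 ± 0.26 (adjusted p = 0.00859) and Pcgf6 knockout by 1.39 ± 0.26 (adjusted p = 0.00795). The L3mbtl2 and Pcgf6 knockouts, at 0.09 ± 0.28 from each other, were not separated (adjusted p = 0.842). Nid2 shares 437 exon bases (8.45% of its own) with Rtraf, a gene of the opposite strand, and the library kit does not mark strand. Rtraf stood at 133, 154 and 134 FPKM in libraries labelled Mga knockout, 117 and 115 in L3mbtl2 knockout, 156 and 149 in Pcgf6 knockout, and 141, 133 and 136 in wild type, highest in Pcgf6 knockout replicate 1 and lowest in L3mbtl2 knockout. It fell in L3mbtl2 knockout, by -0.24 (adjusted p = 0.0461), where Nid2 rose. In Pcgf6 knockout Rtraf lay above every wild type library, as Nid2 did, but its difference of 0.16 did not pass (adjusted p = 0.258). The part of Rtraf reads in the Nid2 values was not tested.

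Nid1, on chromosome 13, encodes the other nidogen, which binds the laminin gamma chain. It measured 131, 65.8 and 47.5 FPKM in libraries labelled Mga knockout, 68.6 and 67.9 FPKM in L3mbtl2 knockout, 51.3 and 51.4 FPKM in Pcgf6 knockout, and 43.0, 43.1 and 40.4 FPKM in wild type. All knockout libraries were above wild type, yet no comparison passed. The fold changes were 0.82 ± 0.30, 0.69 ± 0.34 and 0.28 ± 0.34 in the Mga, L3mbtl2 and Pcgf6 comparisons (adjusted p = 0.0580, 0.130 and 0.654). Without replicate 1 labelled Mga knockout the Mga and L3mbtl2 comparisons passed, at 0.41 and 0.69 (adjusted p = 0.0286 and 0.00254). Without replicate 3 the Mga value was 1.14 (adjusted p = 0.0116). The ratio of Nid2 to Nid1 was 1.88, 1.82 and 4.87 in the libraries labelled Mga knockout, 1.12 and 1.14 in L3mbtl2 knockout, 1.39 and 1.45 in Pcgf6 knockout, and 0.866 to 0.910 in wild type, above wild type in every knockout library.

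Sparc, on chromosome 11, encodes a secreted calcium-binding glycoprotein that binds collagen IV. It measured 377, 161 and 209 FPKM in libraries labelled Mga knockout, 299 and 300.3 FPKM in L3mbtl2 knockout, 203 and 200.1 FPKM in Pcgf6 knockout, and 198, 196 and 199 FPKM in wild type. The L3mbtl2 knockout libraries were above wild type, the Pcgf6 knockout libraries barely so, and those labelled Mga knockout lay on both sides. Fold changes were 0.24 ± 0.25, 0.60 ± 0.28 and 0.03 ± 0.28 in the Mga, L3mbtl2 and Pcgf6 comparisons (adjusted p = 0.483, 0.122 and 0.975). The L3mbtl2 difference passed without replicate 1 or without replicate 2 labelled Mga knockout (adjusted p = 0.00207 and 0.0376). The Mga value was -0.11 without replicate 1. The median of the 1352 tested genes of chromosome 11 was -0.23, 0.13 and -0.31 in the Mga, L3mbtl2 and Pcgf6 comparisons. Relative to these medians Sparc was at 0.47, 0.46 and 0.33.

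Hspg2, on chromosome 4, encodes perlecan, the large heparan sulfate proteoglycan of basement membranes. It measured 33.0, 57.8 and 53.7 FPKM in libraries labelled Mga knockout, 37.6 and 38.8 FPKM in L3mbtl2 knockout, 50.6 and 52.1 FPKM in Pcgf6 knockout, and 42.7, 44.0 and 44.6 FPKM in wild type. The L3mbtl2 knockout lay below wild type, the Pcgf6 knockout above it, and the libraries labelled Mga knockout on both sides. None of the fold changes passed, at 0.10 ± 0.18, -0.19 ± 0.20 and 0.23 ± 0.20 (adjusted p = 0.699, 0.472 and 0.533). Without replicate 1 labelled Mga knockout all 3 did, at 0.35, -0.19 and 0.23 (adjusted p = 0.00161, 0.0158 and 0.0192).

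That replicate therefore set much of the result. Without it 5 of the 10 genes passed in the Mga comparison (4 higher, 1 lower), 7 in L3mbtl2 knockout (4 higher, 3 lower) and 3 in Pcgf6 knockout (3 higher), against 45.3%, 53.4% and 23.2% of all genes tested in that fit. Without replicate 2 fewer passed than without replicate 1, at 2, 5 and 1 genes, against 55.4%, 54.6% and 25.5%. The median log2 fold change of the 10 genes in the Mga comparison moved more without replicate 2. It was 0.41 there, but 0.10 without replicate 1 and 0.10 with all libraries. Without either L3mbtl2 knockout library 1 gene, Lama5, passed in that comparison.

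Between knockouts few of the genes differed past the threshold. In the libraries labelled Mga knockout 2 were higher than in L3mbtl2 knockout (Lama5 and Nid2; 22.8% of all tested genes passed, 10.9% higher) and 1 was higher than in Pcgf6 knockout (Nid2; 22.6% passed, 12% higher). In L3mbtl2 knockout 1 was lower than in Pcgf6 knockout (Lama5; 30.5% passed, 13.9% lower). Each Nid2 difference was lost in 3 of 22 alternatives. With only the compared groups in the fit the adjusted p was 0.0997 against L3mbtl2 knockout and 0.115 against Pcgf6 knockout. It was 0.0681 and 0.0654 without either L3mbtl2 knockout library, and 0.0673 and 0.0616 without either Pcgf6 knockout library.

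The libraries were then read for other cells that make matrix. RNA of bulk samples cannot tell fewer cells of a type from less RNA per cell. The 20 fibroblast (feeder cell) markers, which include Col1a1, Col1a2 and Col3a1, summed to 762, 210 and 336 FPKM in libraries labelled Mga knockout, 343 and 338 FPKM in L3mbtl2 knockout, 235 and 233 FPKM in Pcgf6 knockout, and 294 to 302 FPKM in wild type. None of the 20 was at 0 in any library. Replicate 1 labelled Mga knockout had the highest sum, and there Col1a1 was at 123 FPKM and Col3a1 at 26.7 FPKM, against 29.5 to 31.7 and 5.09 to 5.39 FPKM in wild type. That is the library in which Sparc, Lamb1, Col4a1, Col4a2, Nid1 and Nid2 were at their highest, while Lama1, Lamc1 and Hspg2 were at their lowest. The part of such cells in these values was not tested. Of 19 tested fibroblast markers 1, Col5a2, rose in the libraries labelled Mga knockout, and limma called 0 in either of the other knockouts, where 1 and 3 had an unadjusted p under 0.05. Of all tested genes 39.5%, 40% and 10.1% passed in the Mga, L3mbtl2 and Pcgf6 comparisons. In a fit without replicate 1 labelled Mga knockout 3 of the 19 rose and 8 fell in the Mga comparison, 2 rose and 6 fell in L3mbtl2 knockout, and 1 rose and 12 fell in Pcgf6 knockout. That fit called 45.3%, 53.4% and 23.2% of all tested genes.

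Primitive and parietal endoderm markers, 20 genes of the lineage that lays down the first basement membranes, were low throughout. They summed to 59.0, 19.6 and 37.1 FPKM in libraries labelled Mga knockout, 43.6 and 44.4 FPKM in L3mbtl2 knockout, 36.3 and 35.8 FPKM in Pcgf6 knockout, and 21.9 to 22.9 FPKM in wild type. From 0 to 3 of the 20 were at 0, depending on the library. In replicate 1 labelled Mga knockout the largest parts of the sum were Thbd (21.3 FPKM) and Fst (8.32), with Gata4 at 4.47 and Gata6 at 1.07. In L3mbtl2 knockout Thbd was the largest part, at 11.2 and 11.9 FPKM, and Srgn was at 5.0 and 5.6. In wild type Thbd was at 5.39 to 6.19 FPKM and Srgn at 0.629 to 0.958. The sums thus do not follow Gata4 and Gata6 alone. Of 15 tested, 4 rose (among them Gata4 and Gata6) and 1 fell (Pth1r) in the libraries labelled Mga knockout, 7 rose in L3mbtl2 knockout and 6 rose in Pcgf6 knockout. Of all tested genes 22.8%, 23.4% and 5.45% rose in these comparisons. The Mga count was 2 higher and 2 lower without replicate 1, and 7 higher and 1 lower without replicate 2. Gata4, a transcription factor of this lineage, averaged 4.63, 1.92 and 2.99 FPKM in the Mga, L3mbtl2 and Pcgf6 groups and 0.382 FPKM in wild type. Its relative Gata6 averaged 0.978, 1.04 and 2.72 FPKM in those groups and 0.286 FPKM in wild type. The highest Gata4 and the highest Nid2 were thus both in the libraries labelled Mga knockout, but Gata6 was highest in Pcgf6 knockout, and a part of endoderm cells in the Nid2 values was not tested.

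Macrophage and endothelial markers were also summed. The 14 macrophage markers gave 30.0, 32.6 and 9.43 FPKM in libraries labelled Mga knockout, 433 and 416 FPKM in L3mbtl2 knockout, 210 and 215 FPKM in Pcgf6 knockout, and 154 to 160 FPKM in wild type. Up to 6 were at 0 in a library labelled Mga knockout and at most 1 in any other library, and Lyz2, the macrophage lysozyme, held most of the sum outside the libraries labelled Mga knockout. Of 12 tested, 11 fell in the libraries labelled Mga knockout, 5 rose in L3mbtl2 knockout (C1qc, C1qa, C1qb, Itgam and Fcer1g) and 2 rose in Pcgf6 knockout (C1qc and C1qa). Of all tested genes 16.7% fell in the Mga comparison, and 23.4% and 5.45% rose in the L3mbtl2 and Pcgf6 comparisons. In the fit without replicate 1 labelled Mga knockout 11 of the 12 rose in L3mbtl2 knockout, and 4 rose and 1 fell in Pcgf6 knockout. The sum was highest in L3mbtl2 knockout, where Lama5 was lowest, and lowest in the libraries labelled Mga knockout, where the mean of Lama5 was highest, while the Pcgf6 knockout lay above wild type in both. The part of such cells in the Lama5 values was not tested. The sum of the 10 endothelial markers varied less, from 25.7 to 31.3 FPKM in libraries labelled Mga knockout, 20.2 and 21.1 FPKM in L3mbtl2 knockout, 18.7 and 19.4 FPKM in Pcgf6 knockout, and 20.5 to 21.3 FPKM in wild type. Single markers moved apart within it. Eng was at 20.2 to 22.9 FPKM in libraries labelled Mga knockout and 8.96 to 9.33 FPKM in wild type, and Tek at 0.692 to 3.40 and 6.40 to 6.94 FPKM. At most 1 of the 10 was at 0 in any library. Of 6 tested, 1 rose (Eng) and 2 fell (Tek and Egfl7) in the libraries labelled Mga knockout and 2 rose (Cdh5 and Eng) and 2 fell (Tek and Egfl7) in L3mbtl2 knockout, and limma called 0 in Pcgf6 knockout, where 1 had an unadjusted p under 0.05. Over all tested genes the shares that passed were 39.5%, 40% and 10.1%.

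**Figure D4:**
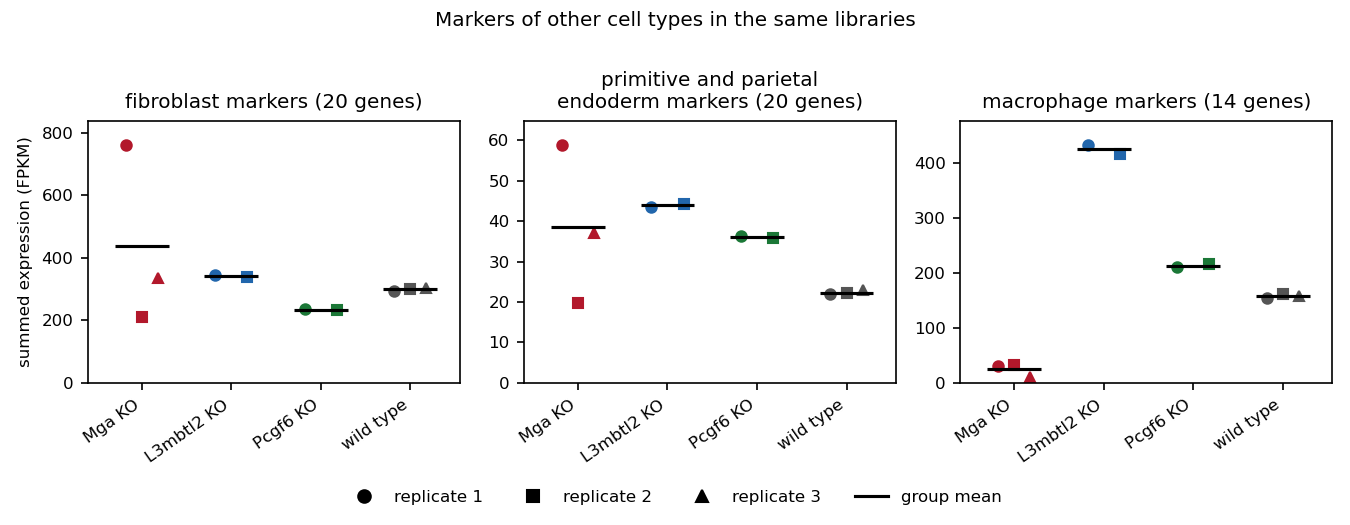
Summed FPKM of fibroblast, endoderm and macrophage markers in each library (linear axes from 0), with group means as lines and knockouts (KO) left of wild type. Replicate 1 of Mga KO stands out in the fibroblast sum at 762 FPKM, and macrophage markers are highest in L3mbtl2 KO (433 and 416 FPKM) and lowest in Mga KO (9.43 to 32.6 FPKM).

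The less common components of basement membranes were 28 further genes, of which 18 were expressed highly enough to test. In the libraries labelled Mga knockout 3 rose (Lamb2, Ntn4 and Col4a5) and 5 fell (Col18a1, Smoc1, Frem2, Lama3 and Lamb3), in L3mbtl2 knockout 6 fell, and in Pcgf6 knockout 1 fell, the matricellular gene Smoc2, which averaged 0.150 FPKM there and 0.465 FPKM in wild type. The median log2 fold changes were -0.13, -0.31 and -0.33, beside 0.10, 0.13 and 0.04 over all tested genes. The shares of all tested genes that passed were 39.5%, 40% and 10.1%. Without replicate 1 labelled Mga knockout 4 rose and 7 fell in the Mga comparison, 1 rose and 7 fell in L3mbtl2 knockout, and 1 rose and 4 fell in Pcgf6 knockout. Col18a1, the collagen whose end fragment is endostatin, averaged 36.2 FPKM in libraries labelled Mga knockout and 22.1 FPKM in L3mbtl2 knockout, against 75.7 FPKM in wild type. It fell in both, by -1.08 ± 0.13 and -1.77 ± 0.15 (adjusted p = 0.000521 and 0.000104). Smoc1, a relative of Sparc, fell by -2.64 ± 0.33 and -1.63 ± 0.37 in the same comparisons (adjusted p = 0.000586 and 0.00844). Frem2, needed for skin to adhere to its basement membrane, fell by -1.44 ± 0.19 and -1.79 ± 0.21 (adjusted p = 0.000811 and 0.000514).

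Lamb2, the alternative laminin beta chain, passed in both directions, as Lama5 did. It averaged 18.02 FPKM in libraries labelled Mga knockout and 5.36 FPKM in L3mbtl2 knockout, against 8.35 FPKM in wild type. It rose by 1.07 ± 0.17 in the first (adjusted p = 0.00200) and fell by -0.63 ± 0.19 in the second (adjusted p = 0.0304). Fbln1, a fibulin that binds laminin and nidogen, averaged 5.64 FPKM in L3mbtl2 knockout and 18.8 FPKM in wild type and fell by -1.72 ± 0.29 (adjusted p = 0.00224).

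Of 24 enzymes and chaperones of collagen IV synthesis 23 were tested, and 7 rose and 2 fell (Plod1 and Loxl4) in the libraries labelled Mga knockout, where 22.8% of all tested genes rose and 16.7% fell. In L3mbtl2 knockout 4 rose (Colgalt2, Mia3, Plod2 and Sec23a) and 4 fell (Plod1, P4ha2, Loxl4 and P4ha1), against 23.4% and 16.7% of all tested genes. In Pcgf6 knockout 1 rose (Plod2) and 2 fell (P4hb and Loxl2), against 5.45% and 4.62%, and the medians were 0.24, -0.12 and -0.19. Without replicate 1 labelled Mga knockout the Mga count was 8 up and 7 down, and without replicate 2 it was 13 up and 2 down. Without replicate 1, 5 rose and 7 fell in L3mbtl2 knockout, and 1 rose and 7 fell in Pcgf6 knockout. The crosslinking enzyme Lox averaged 56.3 FPKM in libraries labelled Mga knockout and 13.4 FPKM in wild type and rose by 1.94 ± 0.29 (adjusted p = 0.00139). Plod2, a lysyl hydroxylase that prepares collagen for crosslinking, averaged 24.4 FPKM in libraries labelled Mga knockout and 8.95 FPKM in wild type and rose by 1.43 ± 0.10 (adjusted p = 3.53e-05). The prolyl hydroxylase subunit P4ha1 rose there by 0.76 ± 0.13 (adjusted p = 0.00284) and the galactosyltransferase Colgalt1 by 0.71 ± 0.15 (adjusted p = 0.00751). In L3mbtl2 knockout the lysyl hydroxylase Plod1 averaged 6.43 FPKM against 15.2 FPKM in wild type and fell by -1.22 ± 0.13 (adjusted p = 0.000283), and P4ha2 fell by -0.97 ± 0.10 (adjusted p = 0.000329). In the same knockout Mia3, which loads large cargo such as collagen into transport carriers, rose by 0.68 ± 0.11 (adjusted p = 0.00163). Mia3 lies on chromosome 1, whose median was 0.75 higher. In Pcgf6 knockout P4hb, the shared subunit of the prolyl hydroxylases, averaged 231 FPKM against 318 FPKM in wild type and fell by -0.46 ± 0.10 (adjusted p = 0.0288).

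Of the 17 receptors for basement membranes 3 rose (Sdc4, Itga6 and Itga7) and 6 fell in the libraries labelled Mga knockout, 1 rose (Itga6) and 6 fell in L3mbtl2 knockout, and 1 fell (Itgb4) in Pcgf6 knockout, with medians of -0.11, -0.19 and -0.18. Of all tested genes 22.8% rose and 16.7% fell in the Mga comparison, 23.4% and 16.7% did so in the L3mbtl2 comparison, and 5.45% and 4.62% in that of Pcgf6. With replicate 1 labelled Mga knockout left out, 4 receptors rose and 8 fell in the Mga comparison, 3 rose and 6 fell in L3mbtl2 knockout, and 1 rose and 4 fell in Pcgf6 knockout. The integrin alpha chains for laminin went apart. Itga3 averaged 14.0 FPKM in libraries labelled Mga knockout and 9.04 FPKM in L3mbtl2 knockout against 33.0 FPKM in wild type, and fell by -1.29 ± 0.20 and -1.86 ± 0.22 (adjusted p = 0.00172 and 0.000542). Itga6 averaged 27.7 and 27.2 FPKM in these groups against 18.8 FPKM in wild type, and rose by 0.54 ± 0.13 and 0.53 ± 0.14 (adjusted p = 0.00996 and 0.0167). Itgb4, its partner in hemidesmosomes, fell in all 3 knockouts, to means of 1.31, 1.71 and 1.58 FPKM in the Mga, L3mbtl2 and Pcgf6 groups against 3.53 FPKM in wild type (adjusted p = 0.000760, 0.00545 and 0.0128). The collagen receptor Ddr1 fell by -0.67 ± 0.11 in the libraries labelled Mga knockout and -1.40 ± 0.13 in L3mbtl2 knockout (adjusted p = 0.00258 and 0.000159). The syndecan Sdc4 averaged 142 FPKM in libraries labelled Mga knockout and 35.6 FPKM in wild type and rose by 1.87 ± 0.31 (adjusted p = 0.00229).

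Of 17 genes that cut matrix or hold such enzymes in check, 2 rose (Timp3 and Timp2) and 2 fell (Adamts1 and Mmp15) in the libraries labelled Mga knockout. In L3mbtl2 knockout 2 rose (Ctsl and Htra1) and 2 fell (Adamts4 and Mmp15), and in Pcgf6 knockout 1 fell (Adamts4), with medians of 0.05, -0.11 and -0.25. Of all tested genes 39.5%, 40% and 10.1% passed. When replicate 1 labelled Mga knockout was left out, 2 rose and 7 fell in the Mga comparison, 6 rose and 4 fell in L3mbtl2 knockout, and 5 fell in Pcgf6 knockout. Without replicate 2, 5 rose and 2 fell in the Mga comparison. The metalloproteinase inhibitors Timp3 and Timp2 rose in the libraries labelled Mga knockout, by 1.75 ± 0.24 and 1.23 ± 0.29 (adjusted p = 0.00103 and 0.0104). Timp2 measured 117, 49.7 and 48.6 FPKM there, against 27.1 to 28.4 FPKM in wild type. In L3mbtl2 knockout the secreted protease Htra1 averaged 65.8 FPKM against 11.5 FPKM in wild type and rose by 2.50 ± 0.78 (adjusted p = 0.0317). The aggrecanase Adamts4 fell there by -1.26 ± 0.20 (adjusted p = 0.00173) and in Pcgf6 knockout by -0.81 ± 0.20 (adjusted p = 0.0357).

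The members did not share a single pattern over the libraries. Each gene's log2 values were centred on their mean, and the 10 were averaged to a mean profile over the 10 libraries. Pearson's r of single members with that profile, of which each is a part, ran from -0.53 (Lamc1) and -0.48 (Lama1) to 0.67 (Lama5) and 0.82 (Nid2). Among 7395 other genes with a mean of at least 5 FPKM, those most like the profile were Ndn, an imprinted gene (r = 0.996), Frmd6 (0.969), Tmed3 (0.967), Pdia4, a protein disulfide isomerase of the endoplasmic reticulum (0.960), Nptx2 (0.958), Erg28 (0.954), Sec1 (0.953) and Dmrt1 (0.951). These values describe 10 libraries of which those labelled Mga knockout vary most. Ndn measured 33.6, 13.8 and 27.7 FPKM in libraries labelled Mga knockout, 13.8 and 13.3 FPKM in L3mbtl2 knockout, 19.0 and 20.9 FPKM in Pcgf6 knockout, and 12.2 to 13.1 FPKM in wild type.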

How the data were processed

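RNA of 10 embryonic stem cell libraries was sequenced after Trizol extraction and a NEBNext Ultra RNA library kit, which does not mark strand, per the labels' protocols. The authors deposited FPKM per Ensembl gene. Per the submitters' processing notes, Bowtie2 2.2.3, TopHat2 2.0.12 and HTSeq 0.6.0 were used with GRCm38. No source used here gives the scaling.

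Symbols and positions came from GENCODE M21, which named 30250 of 30460 genes. Low values move in steps of 1 read. Whole reads (within 0.005) came out at the GENCODE exon length for 77.8% of genes above 0, and for 22.2% the length was taken from the values. Their sum gave the depth, 19.4 to 26.7 (in 1e6 reads), and precision is limited by the number of libraries. The genes that reached 0.5 FPKM in 2 or more libraries were tested with limma 3.58.1 (R 4.3.3) on log2(FPKM + 0.1), all 10 libraries in 1 fit with group as its term and a mean-dependent variance prior. The code was tested on simulated data with the same dispersion for all genes and groups. That test therefore does not cover the wider spread of the libraries labelled Mga knockout. The pseudocount shrinks the change of low genes.

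The members and lists were chosen with earlier results of these data known. Named are the members, the 3 targeted genes, up to 4 genes of each list per knockout with the smallest p among those that passed with groups not overlapping, and the 8 genes most like the members' mean profile. Other genes and values named (among them Col1a1, Col3a1, Lyz2, Gata6 and Rtraf, and Itga6 in the Mga and Lamb2 in the L3mbtl2 comparison) were chosen after their values were seen. Replicate numbers did not pair libraries: over 13 pairs with the same number, deviations from group means correlated between -0.02 and 0.03. Gene lists are described by counts, by sums or medians and by tests of single genes, and no list was tested as a whole. Values of 1 gene of these lists are not reported here.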

Additional observations from a re-analysis of the deposited data

Results flagged for a closer look

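The direction in which Lama5 differed from wild type was not the same in all knockouts. It was above wild type in the 3 libraries labelled Mga knockout (47.6, 41.5 and 58.3 FPKM) and in both Pcgf6 knockout libraries (37.0 and 37.0 FPKM), and below it in both L3mbtl2 knockout libraries (16.6 and 16.8 FPKM), with wild type at 31.6 to 31.9 FPKM. The difference between knockouts was tested directly with limma. It was 1.54 ± 0.12 for Mga over L3mbtl2 knockout (log2 scale, SE; adjusted p = 0.000121) and -1.15 ± 0.14 for L3mbtl2 over Pcgf6 knockout (adjusted p = 0.000876). Both passed under all 22 alternatives, with adjusted p of at most 0.0185 and 0.0123. Lama1, Lamb1 and Hspg2 also lay on opposite sides of wild type in the L3mbtl2 and Pcgf6 knockouts, but those differences did not pass (adjusted p = 0.217, 0.310 and 0.179). The same was true of Lama1 in the libraries labelled Mga knockout against the Pcgf6 knockout (adjusted p = 0.160).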

How the results depend on the processing

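The 22 alternatives changed the pseudocount, filter, scaling, variance prior, library weights, replicate block, chromosome centring, libraries in the fit and unit tested (limma-voom on recovered reads). A further count model on recovered reads was not run. Of 1320 member fold changes under an alternative, 1177 kept direction and side of the threshold, 85 newly passed, 20 no longer passed and 38 changed direction. Causes were not tested. The calls of Lama5 (Mga and L3mbtl2 against wild type, L3mbtl2 against Mga and Pcgf6) and of Nid2 (Mga) held in all 22, and Lamc1 in L3mbtl2 knockout was lost in 12 and changed direction in 1. Numbers of members that passed against wild type were 4, 9 and 6 with array weights (Mga, L3mbtl2, Pcgf6), 9 and 8 for L3mbtl2 and Pcgf6 with only the compared groups, and 1 for Pcgf6 with a filter at 2 FPKM, median-of-ratios, upper-quartile scaling or chromosome centring. Between knockouts they were 6, 4 and 7 with array weights (Mga against L3mbtl2, Mga against Pcgf6, L3mbtl2 against Pcgf6) and 1, 0 and 7 with only the compared groups. For Mga against Pcgf6 there were 2 with the 2 FPKM filter, median-of-ratios or voom. For Mga against wild type there were 3 with chromosome centring (2 higher, 1 lower) and 3 with the replicate block (3 higher). Over all genes 9572, 11414 and 7969 passed with array weights and 3994, 10591 and 6878 with only the compared groups, against 6210, 6297 and 1584. In the main fit 57.8% and 58.4% of the calls were higher in the Mga and L3mbtl2 comparisons. The shares were 50.1% and 49.8% with median-of-ratios, 51.8% and 52.3% with upper-quartile scaling, and 47.8% and 46.5% with chromosome centring. Same-numbered libraries did not deviate together (0 of 13 pairs over 0.1), and with the replicate block 992 genes passed for Pcgf6, Lamc1 in L3mbtl2 knockout was lost (adjusted p = 0.0662) and Sparc in Pcgf6 was at -0.011. Leaving out 1 library at a time gave 2 to 5, 1 to 7 and 0 to 3 members against wild type (most without replicate 1 labelled Mga knockout), and 1 to 5, 0 to 3 and 1 to 6 between knockouts. All genes ranged from 2829 (without L3mbtl2 replicate 1) to 8515 (without replicate 2 labelled Mga knockout) for L3mbtl2, and from 154 (without Pcgf6 replicate 2) to 3975 (again without that Mga library) for Pcgf6. All 38 changes of direction were of differences that had not passed, except Lamc1 in L3mbtl2 knockout. The log2 values were these. Mga against wild type: array weights Col4a1 0.0077 and Col4a2 -0.026, centring Lamc1 -0.20 and Hspg2 -0.022, 1 library left out Lamc1 -0.11 to 0.29, Col4a1 -0.41 to 0.34, Col4a2 -0.37 to 0.47, Sparc -0.11 to 0.51 and Hspg2 -0.056 to 0.35. L3mbtl2 against wild type: centring Lamc1 -0.17. Pcgf6 against wild type: median-of-ratios Sparc -0.013. Mga against L3mbtl2: array weights Lama1 0.49, Lamb1 0.13 and Nid1 -0.40, centring Col4a1 -0.057, 1 library left out Lama1 -0.59 to 0.72, Lamb1 -0.40 to 0.45, Col4a1 -0.34 to 0.41, Col4a2 -0.16 to 0.68 and Nid1 -0.29 to 0.45. Mga against Pcgf6: upper quartile Col4a1 -0.0077, array weights Hspg2 0.027, centring Col4a1 -0.026, 1 library left out Lamc1 -0.24 to 0.15, Col4a1 -0.31 to 0.44, Col4a2 -0.10 to 0.74, Sparc -0.13 to 0.48 and Hspg2 -0.29 to 0.12. L3mbtl2 against Pcgf6: median-of-ratios Col4a1 -0.033, upper quartile Col4a1 -0.039 and Col4a2 -0.0041, centring Lamc1 -0.23 and Nid2 -0.10, 1 library left out Col4a1 -0.019 to 0.066. With 2 libraries in a group, small differences cannot be resolved, and the precision rests on the number of libraries more than on depth, since each member had at least 422 reads in every library.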
